A study of Mus musculus with 3 samples.

Results

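Naive B cells recirculate between blood and lymphoid organs, and the receptors they carry decide where in the spleen they settle. S1pr1 and S1pr4 are receptors for sphingosine-1-phosphate, and S1pr1 draws lymphocytes out of tissue and holds marginal zone B cells beside the blood sinus. Cxcr5 draws B cells into follicles, Ccr7 to the border with the T cell zone, Gpr183 (EBI2, an oxysterol receptor) to the outer follicle and Cxcr4 to the dark zone of germinal centres (GCs). Ccr6 binds Ccl20. Klf2 is a zinc finger transcription factor of resting lymphocytes that is known, best in T cells, to keep S1pr1 transcribed.

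These 8 genes were taken by name from the 32285 genes of a single-cell RNA matrix of spleen B cells, and all 8 are in it. The cells came from 3 LDHA-deficient (labelled KO) and 3 LDHA-sufficient (labelled WT) mice. LDHA is a lactate dehydrogenase subunit that makes lactate from pyruvate. The labels give neither the strain, the age, the immunization nor the allele or Cre driver behind the deficiency. Hashtag antibodies to CD45 and B2m (the light chain of MHC class I) marked the mouse of origin. Viable B cells were sorted on GL7, a marker of GC and activated B cells, and all 6 mice shared 1 lane, so lane and genotype do not vary together. Hashtag numbers name mice and pair none.

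After filtering, 867 B-lineage cells of LDHA-deficient and 918 of LDHA-sufficient mice remained, with 236 to 361 cells and 1127091 to 2219652 UMIs (unique molecular identifiers, 1 per captured RNA molecule) per mouse. All 5 B-lineage markers were detected, and 57 myeloid and 7 plasmacytoid dendritic cells were left out. Ldha, the check of the labels, stood at 49.6, 48.6 and 71.9 CPM (UMIs of a gene per 1000000 UMIs) in LDHA-deficient mice, against 235, 245 and 159 CPM in LDHA-sufficient mice. GC B-like cells made up 1.94% to 5.51% of B cells in LDHA-deficient mice and 7.55% to 25.7% in LDHA-sufficient mice, where mouse 3 held the 7.55%. Red cell markers were uneven within genotypes, from 33.4 to 162 CPM in LDHA-deficient and from 24.0 to 3143 CPM in LDHA-sufficient mice, and their part in the results was not tested.

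Cells were grouped into classes by clustering on genes that did not include the 8, and each class was named from marker genes. Follicular B-like cells numbered 946, marginal zone B-like 241, interferon-responding B-like 211, GC B-like 204, activated B-like 166 and plasma cell-like 17. The GC B-like class held a pair of clusters. One, of 143 cells, was led by mitotic genes such as Aspm and Top2a, and the other, of 61 cells, by a set that held S1pr2 and Rgs13, both background markers of GC B cells. Levels of the 8 genes by class are a description with no test, since classes are defined by expression. All levels are CPM over the summed UMIs of a class in a mouse, and no level is compared between genes.

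The promoter windows of the members are shown because Klf2 is one of the 8 and its family binds CACCC elements. RefSeq's promoter table (GRCm38.p6) matched 5 of the 8 members by symbol, and the 250 bases before the annotated start were searched for CACCC or its reverse complement GGGTG. Klf2, S1pr4 and Cxcr4 each held 1 match, given in capitals, and the windows of Gpr183 and Ccr6 held none. Of all 32851 promoters in the table, 52.0% held a match in the same 250 bases. A match is only those letters and shows no binding. S1pr1, Ccr7 and Cxcr5 are named only.
Klf2 promoter, chr8:72318812-72319061, plus strand: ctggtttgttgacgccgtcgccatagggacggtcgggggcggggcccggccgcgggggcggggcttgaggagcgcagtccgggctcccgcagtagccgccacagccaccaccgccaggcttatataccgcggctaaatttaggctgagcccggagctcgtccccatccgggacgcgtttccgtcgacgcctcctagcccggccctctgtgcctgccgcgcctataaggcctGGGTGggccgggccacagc
S1pr4 promoter, chr10:81500138-81500387, minus strand: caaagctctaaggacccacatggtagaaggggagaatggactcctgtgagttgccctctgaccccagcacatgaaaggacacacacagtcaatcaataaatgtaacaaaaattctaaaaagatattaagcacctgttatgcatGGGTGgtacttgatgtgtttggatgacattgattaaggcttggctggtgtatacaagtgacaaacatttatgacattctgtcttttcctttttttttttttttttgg
Cxcr4 promoter, chr1:128592300-128592549, minus strand: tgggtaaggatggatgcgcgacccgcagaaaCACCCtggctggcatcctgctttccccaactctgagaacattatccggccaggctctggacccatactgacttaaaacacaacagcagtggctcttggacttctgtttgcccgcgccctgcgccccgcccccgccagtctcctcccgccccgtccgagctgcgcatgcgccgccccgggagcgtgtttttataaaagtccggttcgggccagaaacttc
Counted from RefSeq's start, the match lies 19 bases upstream in Klf2, 107 in S1pr4 and 219 in Cxcr4. In GENCODE M21 (GRCm38) Klf2 lies at chr8:72319033-72321656 on the plus strand, so by that start its match lies within the gene. S1pr1 (chr3:115710433-115715072), S1pr4 (chr10:81497747-81500132), Ccr7 (chr11:99144196-99155077) and Cxcr4 (chr1:128588199-128592293) lie on the minus strand, and Ccr6 (chr17:8236043-8257141) on the plus strand. Gpr183 (chr14:121952551-121965195, minus) overlaps Ubac2 on the opposite strand, and Cxcr5 (chr9:44511787-44561877, minus) overlaps Bcl9l. Strand use in the counting is not given by the labels, so reads of these overlapping pairs may not be separable.

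Klf2 was high in follicular and interferon-responding B-like cells and low in GC B-like cells. It averaged 359 ± 42.7 CPM in follicular B-like and 384 ± 64.1 CPM in interferon-responding B-like cells (SD, n = 6 mice here and for the class averages that follow). Neighbouring in that order, these did not differ beyond their spread. The mean was 147 ± 64.8 CPM in marginal zone B-like, 97.3 ± 36.0 CPM in activated B-like and 65.1 ± 35.2 CPM in GC B-like cells. GC B-like cells were below non-GC B cells (all B cells outside the GC and plasma cell-like classes) in 6 of 6 mice, with 65.1 against 281 CPM.

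S1pr1, the egress receptor, peaked in marginal zone B-like cells at 329 ± 37.9 CPM, against 201 ± 14.0 CPM in follicular B-like cells, and was higher there in 6 of 6 mice. Interferon-responding B-like cells held 182 ± 26.1 CPM, activated B-like 116 ± 36.2 CPM and GC B-like cells 63.8 ± 53.3 CPM. The marginal zone class was thus high in S1pr1 while its Klf2 was less than in follicular B-like cells in 6 of 6 mice, 147 against 359 CPM. S1pr4, the second sphingosine-1-phosphate receptor, followed Klf2 more closely. It averaged 64.7 ± 10.9 CPM in follicular, 44.1 ± 10.4 in interferon-responding, 30.9 ± 16.1 in marginal zone, 24.1 ± 5.00 in activated and 16.4 ± 5.11 CPM in GC B-like cells.

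Cxcr4 ran the other way and was highest in GC B-like cells, at 83.0 ± 13.9 CPM, above non-GC B cells (40.5 ± 4.53 CPM) in 6 of 6 mice. Follicular B-like cells held 56.4 ± 6.47 CPM, and marginal zone B-like cells the least, 14.9 ± 9.72 CPM. Between these stood interferon-responding B-like cells at 40.4 ± 30.6 CPM and activated B-like cells at 23.5 ± 16.0 CPM. Within the GC B-like class of the 3 LDHA-sufficient mice, the mitotic cluster held 83.1 ± 17.2 CPM and the S1pr2 cluster 105 ± 22.5 CPM, and the mitotic cluster was lower in 3 of 3 mice. Cxcr5 there was 60.7 ± 8.27 CPM in the mitotic and 123 ± 49.2 CPM in the S1pr2 cluster, again lower in 3 of 3 mice. Cells of the mitotic cluster were larger, with a median of 12960 UMIs against 7452, so lower shares need not be fewer molecules. Per cell, pooled over all mice, the mitotic cluster held 1.315 Cxcr4 UMIs against 1.03, and 0.930 Cxcr5 UMIs against 0.869.

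Gpr183 had its highest mean in activated B-like cells, 190 ± 82.9 CPM, and its lowest in GC B-like cells, 49.0 ± 27.2 CPM. The spread of the activated class covers the 147 ± 22.3 CPM of follicular B-like cells. Ccr7 was alike in follicular (112 ± 27.8 CPM) and activated B-like cells (110 ± 37.3 CPM), with 53.5 ± 23.6 CPM in marginal zone B-like cells. In GC B-like cells it averaged 77.0 ± 45.6 CPM in LDHA-deficient and 27.6 ± 16.4 CPM in LDHA-sufficient mice (SD, n = 3 each). It was above the non-GC level in LDHA-deficient mice 1 and 3, whose GC B-like cells carried few GC markers. Cxcr5, the follicle receptor, held 153 ± 42.7 CPM in activated, 143 ± 9.77 in follicular, 136 ± 16.6 in marginal zone and 102 ± 32.5 in interferon-responding B-like cells, against 70.6 ± 8.60 CPM in GC B-like cells. Ccr6 averaged 92.6 ± 30.8 CPM in marginal zone and 87.8 ± 13.0 CPM in follicular B-like cells and 22.6 ± 22.3 CPM in GC B-like cells. The 17 plasma cell-like cells held between 1 and 6 UMIs of each of the 8 genes, too few to place.

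**Figure D1:**
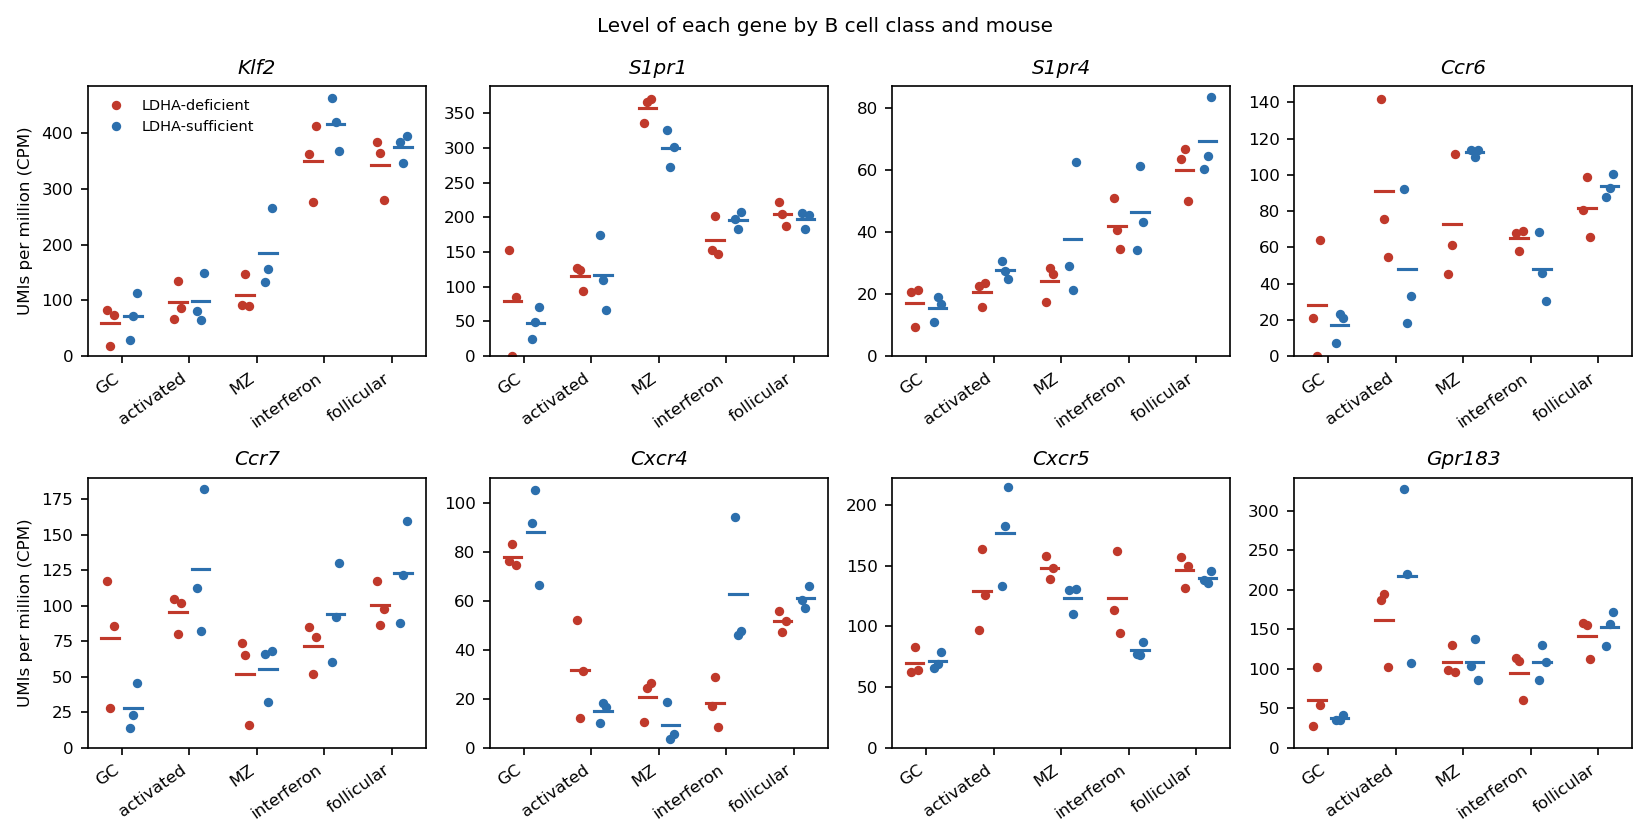
Level of each of the 8 genes (y axis, CPM) by B cell class (x axis), with 1 point per mouse, LDHA-deficient left of LDHA-sufficient, and a bar at the mean of 3 mice. GC B-like cells hold the lowest mean of Klf2 (65.1 CPM) and the highest of Cxcr4 (83.0 CPM), and marginal zone B-like cells the highest of S1pr1 (329 CPM).

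GC B-like cells were large, with a median of 10260 UMIs against 3726 in non-GC B cells, so a lower share of UMIs need not be fewer molecules. Klf2 was lower on both scales, with 0.784 UMIs per GC B-like cell and 1.25 per non-GC B cell. For S1pr1 the values were 0.642 and 0.963 UMIs per cell, and for Ccr6 0.250 and 0.368. Ccr7 was at 0.417 UMIs per cell in both classes, and S1pr4 at 0.211 in GC B-like and 0.218 in non-GC B cells. These values pool the cells of all mice. For Ccr7 the pool mixes unlike genotypes, with means in GC B-like cells of 77.0 CPM in LDHA-deficient (31 cells) and 27.6 CPM in LDHA-sufficient mice (173 cells). Its equality per cell thus need not hold within either genotype. Cxcr5 was higher per cell in GC B-like cells, 0.912 against 0.606 UMIs, although its share of UMIs was lower. Cxcr4 stood at 1.23 UMIs per GC B-like cell against 0.178 per non-GC B cell.

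With every cell thinned to 1000 UMIs, 5.39% of GC B-like and 24.8% of non-GC B cells had a Klf2 UMI (30.4% and 56.0% before thinning). For Cxcr4 the thinned shares were 9.31% and 4.22% (53.4% and 14.4% before thinning), and for S1pr1 5.88% and 17.7% (29.4% and 52.3%). The order thus matched that of the CPM for these genes. In the 57 myeloid cells, left out above, the thinned shares were 10.5% for Klf2, 8.77% for Cxcr4 and 5.26% for S1pr1. The shares of GC B-like cells are below or near these. Whether the myeloid cells express these genes was not tested, so their shares set no floor. Neither presence nor absence in GC B-like cells is read from this comparison. Cxcr5 had a UMI in 3.51% of the 57 myeloid cells after thinning and 10.5% before (median 2524 UMIs). In GC B-like cells its shares were 4.90% after thinning and 54.9% before. Pooled over cells, Cxcr5 stood at 68.5 CPM in GC B-like and 38.2 CPM in myeloid cells. Ccr7 had a UMI in 2.45% of thinned GC B-like cells, against 1.75% of myeloid cells, with 31.3 and 17.0 CPM pooled. With 57 cells the thinned myeloid shares rest on few cells, so no background level is read from them. Ccr6 was at 2.45% in GC B-like cells and at 0 of 57 myeloid cells.

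The follicular B-like class held a pair of clusters, of 423 cells led by Rflnb and Tmem108 and of 523 cells led by Pgap1 and Cd55. In the Rflnb cluster S1pr1 averaged 160 ± 12.1 CPM, against 244 ± 20.8 CPM in the other, and was lower in 6 of 6 mice. Gpr183, Ccr7 and Cxcr5 were lower there in 6 of 6 mice too, with 116 against 180.5, 92.3 against 132 and 124 against 162 CPM. Klf2 stood at 345 ± 37.4 against 374 ± 52.8 CPM, within the spread. Median UMIs per cell were 3990 and 3113.

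Over the 27 sums of a mouse and class with at least 20 cells, 5718 genes were ranked by Pearson's r of log2 CPM with each member. The sums share a lane and overlap in mice, so r is a description with no test. The limit of 20 cells left out the GC B-like sums of all LDHA-deficient mice. GC state and genotype are thus partly mixed in r. Klf2 was most like Snx2 (r = 0.91), Tsc22d3 (0.88), a glucocorticoid-induced gene of resting lymphocytes, and Tent5a (0.87). S1pr1 was most like Cd38 (0.94), Malt1 (0.93) and Itm2b (0.92). S1pr4 was most like Tsc22d3 (0.88), H2-Ob (0.87) and Pde4b (0.86), and Gpr183 like Ier5 (0.87), H2-Ab1 (0.85) and Foxn3 (0.82).
For Ccr7 the first genes were Fcmr (0.80), Satb1 (0.79) and Snx9 (0.76), for Ccr6 Rps27 (0.84), Fau (0.80) and Rp2 (0.79), and for Cxcr5 Rps29 (0.81), Rps24 (0.78) and Clec2i (0.76). Cxcr4 was most like Mbd4 (0.76), Hist1h4d (0.72) and Hist1h1e (0.71), of which the last is a linker histone gene. Among the members, r was highest between Klf2 and S1pr4 (0.84) and between S1pr1 and Ccr6 (0.75). Klf2 and S1pr1 had r = 0.50, and Cxcr4 had negative r with S1pr1 (-0.38) and Cxcr5 (-0.48).

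Whether loss of LDHA moved these genes was first asked over all B cells. None of the 8 passed the threshold (edgeR's quasi-likelihood test, Benjamini-Hochberg adjusted p under 0.05), where 1.2% of the 9174 genes tested did. At an unadjusted p under 0.05 the count was 4, against 16.8% of all genes, and DESeq2 called 0, beside 185 of all 9174 genes. S1pr1 stood at 216, 203 and 185 CPM in LDHA-deficient mice, against 133, 125 and 172 CPM in LDHA-sufficient mice. The genotypes did not overlap, and the log2 fold change was 0.51 ± 0.14 (SE, edgeR adjusted p = 0.0996). Cxcr4 stood at 41.1, 39.2 and 44.4 CPM in LDHA-deficient mice, against 64.9, 70.1 and 47.9 CPM in LDHA-sufficient mice. Every LDHA-deficient mouse was below every LDHA-sufficient one, with a log2 fold change of -0.56 ± 0.16 (edgeR adjusted p = 0.102). Cxcr5 stood at 131, 137 and 126 CPM in LDHA-deficient mice, against 93.7, 97.3 and 121 CPM in LDHA-sufficient mice. Ccr6 stood at 69.0, 79.7 and 71.9 CPM in LDHA-deficient mice, against 50.5, 53.0 and 67.0 CPM in LDHA-sufficient mice. For neither gene did the genotypes overlap, and the log2 fold changes were 0.35 ± 0.14 for Cxcr5 (edgeR adjusted p = 0.210) and 0.40 ± 0.16 for Ccr6 (edgeR adjusted p = 0.204). Gpr183, at 123, 149.98 and 92.3 CPM in LDHA-deficient and 82.0, 94.1 and 116 CPM in LDHA-sufficient mice, overlapped (0.35 ± 0.21, edgeR adjusted p = 0.432). For Klf2, S1pr4 and Ccr7 the estimate was smaller than its SE. Klf2 was at 241, 269 and 204 CPM in LDHA-deficient and 154, 173 and 286 CPM in LDHA-sufficient mice, where mouse 3 was the highest of all 6. Ccr7 had the same shape, with 99.3, 75.0 and 79.8 CPM in LDHA-deficient and 48.2, 56.3 and 118 CPM in LDHA-sufficient mice. The genotypes did not overlap in 19.1% of all genes tested.

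The GC marker genes moved with these values, since they summed to 160 to 233 CPM in LDHA-deficient and 320 to 934 CPM in LDHA-sufficient mice, all 9 of them detected. Other marker sums did not overlap between genotypes either. Marginal zone markers summed to 1078 to 1242 CPM in LDHA-deficient and 794 to 874 CPM in LDHA-sufficient mice, and activated B cell markers to 557 to 631 CPM in LDHA-deficient and 358 to 452 CPM in LDHA-sufficient mice. Interferon-response markers summed to 158 to 281 CPM in LDHA-deficient and 107 to 157 CPM in LDHA-sufficient mice, and memory B cell markers to 133 to 147 CPM in LDHA-deficient and 106 to 120.5 CPM in LDHA-sufficient mice. Plasma cell markers were lower, at 354 to 789 CPM in LDHA-deficient and 1441 to 3092 CPM in LDHA-sufficient mice. Within non-GC B cells the marginal zone, interferon-response and memory B cell sums overlapped. Marginal zone markers there summed to 1112 to 1386 CPM in LDHA-deficient and 917 to 1421 CPM in LDHA-sufficient mice. The part of these cell types in the values of the 8 genes was not tested. In such sums alone fewer cells of a type and less RNA per cell cannot be told apart. By class, GC B-like cells numbered 31 in LDHA-deficient and 173 in LDHA-sufficient mice, and plasma cell-like cells 3 and 14. In the same order, marginal zone B-like cells numbered 120 and 121, interferon-responding B-like 103 and 108 and activated B-like 95 and 71. Within GC B-like cells the GC markers summed to 194 to 1229 CPM in LDHA-deficient and 1004 to 1839 CPM in LDHA-sufficient mice. Leaving out LDHA-sufficient mouse 3, which had the fewest GC B-like cells of its genotype, took the count of members past the threshold to 6, and that of all genes to 1396 of 9588 tested (14.6%). The 6 were Klf2 (log2 fold change 0.58), S1pr1 (0.68), Ccr6 (0.55), Ccr7 (0.73) and Cxcr5 (0.50), which were higher, and Cxcr4 (-0.67), which was lower in LDHA-deficient mice.

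The same question was then asked in non-GC B cells. None of the 8 passed the threshold there, against 0.107% of the 8416 genes tested, with 1 at an unadjusted p under 0.05 (5.17% of all genes) and 0 by DESeq2. S1pr1 was at 229, 216 and 207 CPM in LDHA-deficient mice and 243, 200 and 205 CPM in LDHA-sufficient mice, which overlapped, and its log2 difference was smaller than its SE of 0.10. Cxcr4 stood at 37.6, 36.3 and 38.6 CPM in LDHA-deficient and 45.2, 37.9 and 47.1 CPM in LDHA-sufficient mice, a log2 fold change of -0.24 ± 0.19. Klf2 stood at 268, 286 and 232 CPM in LDHA-deficient and 280.5, 277 and 342 CPM in LDHA-sufficient mice. These ranges overlap, and the log2 fold change was -0.21 ± 0.10 (edgeR adjusted p = 0.923). S1pr4 (-0.24 ± 0.18), Ccr7 (-0.30 ± 0.21) and Ccr6 (-0.15 ± 0.13) also had estimates past their SE. Of the 8, the genotypes did not overlap for Cxcr5 alone, at 139 to 143 CPM in LDHA-deficient and 127 to 139 CPM in LDHA-sufficient mice, against 10.5% of all genes. GC markers summed to 144 to 165 CPM in LDHA-deficient and 159 to 170 CPM in LDHA-sufficient mice. Activated B cell markers, at 529 to 630.5 CPM in LDHA-deficient and 412 to 499.9 CPM in LDHA-sufficient mice, did not overlap, nor did the sparse T cell markers (8.58 to 16.1 CPM in LDHA-deficient and 1.81 to 5.43 CPM in LDHA-sufficient mice). Their part in the result was not tested.

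**Figure D2:**
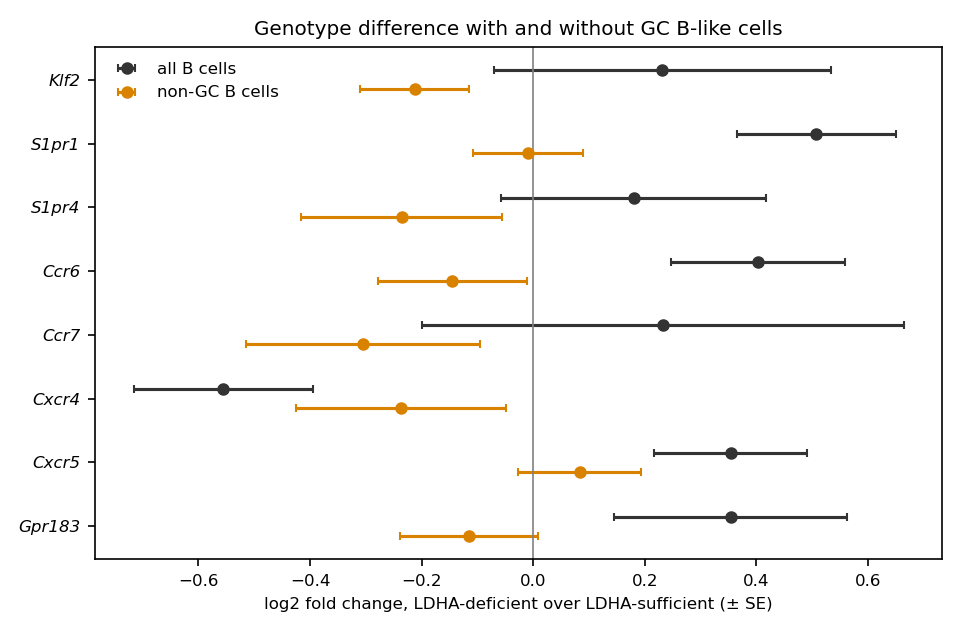
Log2 fold change of each gene between LDHA-deficient and LDHA-sufficient mice (x axis, positive is higher in LDHA-deficient, bars are SE, n = 3 mice per genotype) over all B cells and over non-GC B cells. S1pr1 stands at 0.51 over all B cells and next to 0 in non-GC B cells, and no point passed the adjusted threshold.

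Within follicular B-like cells none of the 8 was called, against 0.0620% of 6453 genes, with 1 at an unadjusted p under 0.05 (5.05% of all genes) and 0 by DESeq2. Ccr7 held 117, 86.1 and 97.9 CPM in LDHA-deficient and 87.6, 121 and 160 CPM in LDHA-sufficient mice, which overlap (log2 fold change -0.37 ± 0.17, edgeR adjusted p = 0.927). Klf2 there differed by -0.16 ± 0.11 and Cxcr4 by -0.30 ± 0.22. In marginal zone B-like cells 6 of the 8 had enough counts to be tested and none was called, against 0.151% of 3986 genes, with 2 at an unadjusted p under 0.05 (6.45% of all genes) and 0 by DESeq2. Klf2 was at 91.0, 147 and 90.1 CPM in LDHA-deficient and 133, 156 and 267 CPM in LDHA-sufficient mice. Only LDHA-deficient mouse 2 reached into the range of the other genotype, and the log2 fold change was -0.71 ± 0.24 (edgeR adjusted p = 0.331). It was -0.40 without LDHA-sufficient mouse 3 and -0.041 with the 8 genes kept in the clustering. Ccr6, at 45.5, 61.2 and 111 CPM in LDHA-deficient and 114, 110 and 114 CPM in LDHA-sufficient mice, differed by -0.72 ± 0.29 (edgeR adjusted p = 0.531). S1pr1 there was 336, 367 and 371 CPM in LDHA-deficient and 326, 273 and 301 CPM in LDHA-sufficient mice, with a log2 fold change of 0.22 ± 0.18 (edgeR adjusted p = 0.907). The genotypes did not overlap, but the share of all genes without overlap was not counted in this class. These sums rest on 17 to 123 UMIs per mouse for Klf2 and S1pr1. Among activated B-like cells 5 members were tested and none was called, against 0.0929% of 2154 genes, with 0 at an unadjusted p under 0.05 (3.71% of all genes) and 0 by DESeq2.

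GC B-like cells of LDHA-deficient mice were few, 11, 7 and 13, against 69, 83 and 21 in LDHA-sufficient mice. In LDHA-deficient mice 1 and 3 they carried few GC markers, so the name of the class rests mainly on LDHA-sufficient cells. The 9 GC markers summed to 194, 1229 and 416 CPM in their GC B-like cells, against 1839, 1746 and 1004 CPM in those of LDHA-sufficient mice. In LDHA-deficient mouse 1 that is near the 145 CPM of its own non-GC B cells. The mitotic cluster gave 9 of 11, 6 of 7 and 13 of 13 cells of the class in LDHA-deficient mice, against 48 of 69, 51 of 83 and 16 of 21 in LDHA-sufficient mice. Activated B cell markers summed to 713, 601 and 651 CPM in LDHA-deficient and 417, 273 and 288 CPM in LDHA-sufficient GC B-like cells.

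Of the 8 genes, 4 could be tested in this class and none was called, against 0.0263% of 3807 genes, with 0 at an unadjusted p under 0.05 (9.14% of all genes) and 0 by DESeq2. Cxcr4 held 76.2, 83.2 and 74.7 CPM in LDHA-deficient and 91.9, 105 and 66.7 CPM in LDHA-sufficient mice. These values were above those of non-GC B cells in 6 of 6 mice. Since the class carried few GC markers in LDHA-deficient mice 1 and 3, no Cxcr4 level of GC B cells is read for that genotype. S1pr1 held 152, 0 and 85.4 CPM in LDHA-deficient mice and 24.2, 49.8 and 70.8 CPM in LDHA-sufficient mice, a log2 fold change of 1.09 ± 0.73 (edgeR adjusted p = 0.676). The 0 is 0 of 108198 UMIs in 7 cells, which allows up to 27.7 CPM by counting error alone.

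Among the 8, Ccr7 had the largest estimate when the genotype effect of non-GC B cells was subtracted from that of GC B-like cells. Its level in GC B-like cells was 118, 27.7 and 85.4 CPM in LDHA-deficient mice (17, 3 and 16 UMIs), against 14.1, 23.0 and 45.8 CPM in LDHA-sufficient mice (14, 24 and 11 UMIs). In non-GC B cells it was 99.4, 78.2 and 79.3 CPM in LDHA-deficient and 79.6, 90.6 and 141 CPM in LDHA-sufficient mice. The test of the difference gave 1.94 ± 0.42 on the log2 scale (edgeR adjusted p = 0.0628), and 1 of 9487 genes (0.0105%) was called, not among the 8. With 2 members at an unadjusted p under 0.05 (7.08% of all genes), DESeq2 called 0. By size Ccr6 came next with 1.23 ± 0.88 (edgeR adjusted p = 0.860), and the estimate of S1pr1, 0.94, was smaller than its SE of 1.00. Gpr183 was at 0.85 ± 0.40 (edgeR adjusted p = 0.696). The lowest Ccr7 of the LDHA-deficient GC B-like cells, 27.7 CPM, came from mouse 2, the mouse with the most GC markers of its genotype, and the part of the marker level in the Ccr7 value was not tested. The call is not stable: Ccr7 passed without LDHA-sufficient mouse 3 (log2 2.11, edgeR adjusted p = 0.0255) and without LDHA-deficient mouse 2 (2.25, edgeR adjusted p = 0.0129).

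The heavy chain library gives a grouping that uses none of the genes. Cells whose V segment was under 0.99 identical to germline were called mutated, those at 1 unmutated, and both were summed in each mouse. Mutated cells numbered 8, 6 and 10 in LDHA-deficient and 25, 33 and 13 in LDHA-sufficient mice, and 24 and 71 in all, against 485 and 483 unmutated. In this comparison, with the mouse as a block, 5 of the 8 genes were called and all 5 fell in mutated cells. Of 8150 genes tested 9.80% were called, 6.07% as lower. The median of all genes tested was -0.13 on the log2 scale, and that of the 8 was -1.48. DESeq2 called 2 of the 8.

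Ccr7 and Gpr183 were lower in mutated cells in 6 of 6 mice. Ccr7 was 59.0, 47.6 and 31.4 CPM in mutated and 114, 75.9 and 77.1 CPM in unmutated cells of LDHA-deficient mice. In LDHA-sufficient mice it was 2.77, 27.7 and 55.6 CPM in mutated and 70.5, 93.2 and 117 CPM in unmutated cells, and the log2 fold change was -1.97 ± 0.37 (edgeR adjusted p = 8.01e-06). Gpr183 held 0, 95.3 and 31.4 CPM in mutated and 135, 145 and 106 CPM in unmutated cells of LDHA-deficient mice, where the 0 (of 33906 UMIs in 8 cells) allows up to 88.5 CPM. In LDHA-sufficient mice the values were 33.2, 25.0 and 66.7 CPM in mutated and 104, 127 and 116 CPM in unmutated cells. Gpr183 fell by 1.81 ± 0.33 on the log2 scale (edgeR adjusted p = 3.11e-06). Mutated and unmutated values did not overlap for either gene, but the share of all genes without overlap was not counted here. The mutated values rest on few UMIs. For Ccr7 these were 2, 2 and 1 in LDHA-deficient and 1, 10 and 5 in LDHA-sufficient mice. For Gpr183 they were 0, 4 and 1 in LDHA-deficient and 12, 9 and 6 in LDHA-sufficient mice. The direction in a single LDHA-deficient mouse is thus weakly measured.

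Klf2 and S1pr1 were lower in mutated cells in 5 of 6 mice, and the exception was LDHA-sufficient mouse 3. Klf2 was 118, 95.3 and 188 CPM in mutated and 228, 281 and 208 CPM in unmutated cells of LDHA-deficient mice. It was 47.1, 41.6 and 400.3 CPM in mutated and 199, 238 and 285 CPM in unmutated cells of LDHA-sufficient mice. The log2 fold change was -1.35 ± 0.27 (edgeR adjusted p = 2.23e-05). S1pr1 was 177, 167 and 94.2 CPM in mutated and 207, 198 and 190 CPM in unmutated cells of LDHA-deficient mice. In LDHA-sufficient mice it was 13.8, 16.6 and 222 CPM in mutated and 191, 184 and 171 CPM in unmutated cells, for a log2 fold change of -1.62 ± 0.35 (edgeR adjusted p = 0.000510). The S1pr1 call was lost without LDHA-deficient mouse 1 (-1.75, edgeR adjusted p = 0.141), without LDHA-deficient mouse 3 (-1.62, edgeR adjusted p = 0.228) and by DESeq2 size factors (-1.45, edgeR adjusted p = 0.273), which moved the median of all genes by 0.15. These mutated sums hold 3 to 20 S1pr1 UMIs and 4 to 36 Klf2 UMIs per mouse.

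Ccr6 was called as well (-1.88 ± 0.42, edgeR adjusted p = 0.000420), but it was lower in mutated cells in 3 of 6 mice and higher in the other 3. The call rested on LDHA-sufficient mice 1 and 2, with 0 and 2.77 CPM in mutated cells, and was lost without either (log2 fold change -1.05 and -1.19, edgeR adjusted p = 0.218 and 0.137). Cxcr4 was higher in mutated cells in 5 of 6 mice but not called (0.70 ± 0.31, edgeR adjusted p = 0.157). Cxcr5 (-0.63 ± 0.28, edgeR adjusted p = 0.151) and S1pr4 (-0.62 ± 0.40, edgeR adjusted p = 0.408) were not called either.

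**Figure D3:**
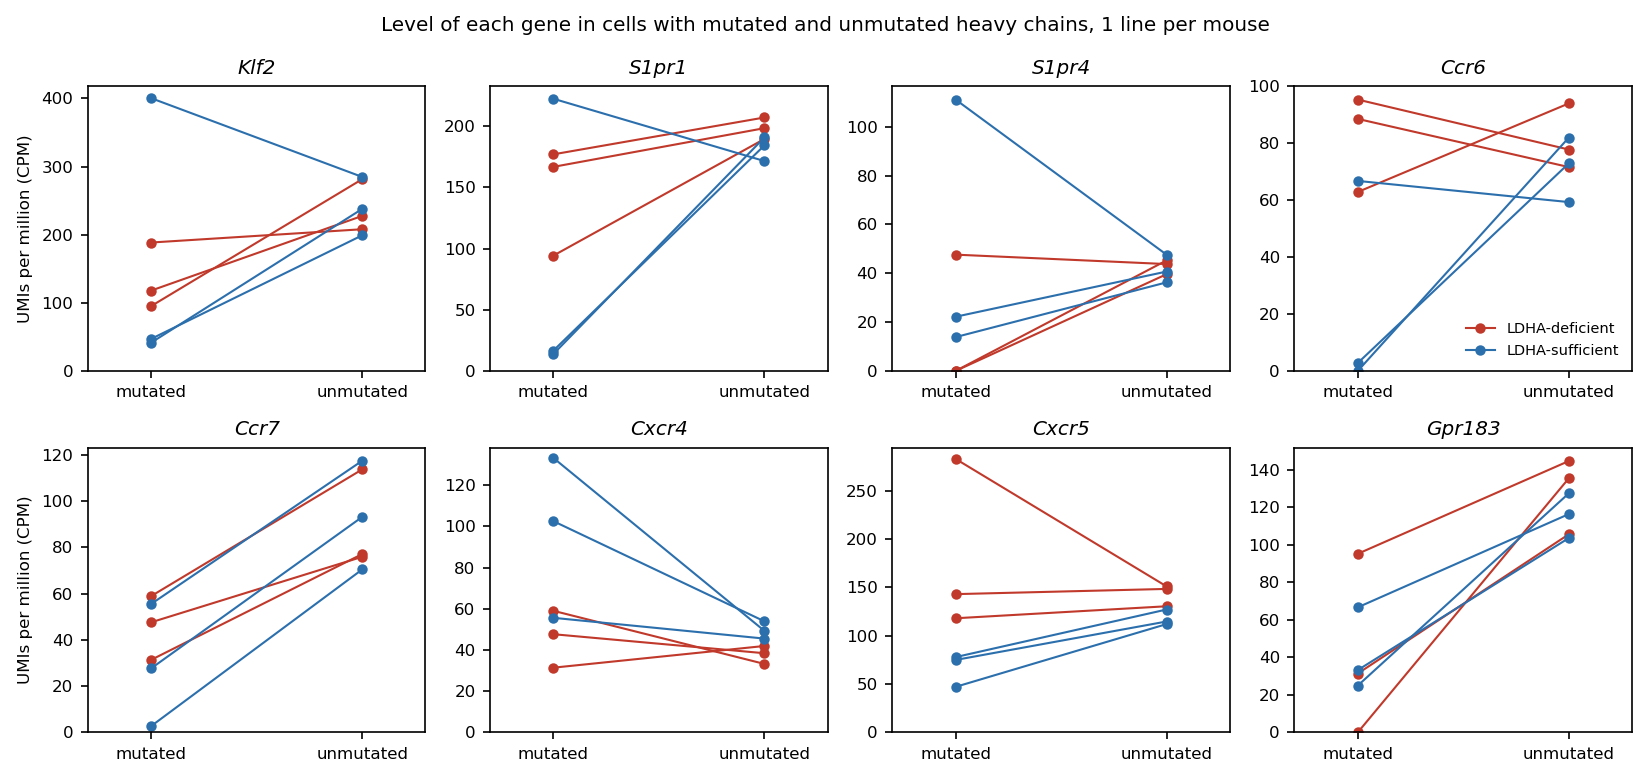
Level of each gene (y axis, CPM) in cells with mutated and with unmutated heavy chains (x axis), 1 line per mouse, coloured by genotype. Ccr7 and Gpr183 are lower in mutated cells in 6 of 6 mice, and Klf2 and S1pr1 in all but LDHA-sufficient mouse 3. Mutated values rest on 1 to 10 Ccr7 UMIs and 0 to 12 Gpr183 UMIs per mouse.

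GC B-like cells were unevenly spread over these groups. They were 1 of 8, 2 of 6 and 1 of 10 mutated cells in LDHA-deficient mice and 16 of 25, 26 of 33 and 3 of 13 in LDHA-sufficient mice, against 13 of 485 and 41 of 483 unmutated cells in all. GC markers summed to 157 to 1072 CPM in LDHA-deficient and 945 to 2213 CPM in LDHA-sufficient mutated cells, against 112 to 204 and 240 to 420 CPM in unmutated cells. Plasma cell markers summed to 881 to 3746 CPM in LDHA-deficient and 1034 to 6489 CPM in LDHA-sufficient mutated cells, against at most 918 and 3073 CPM in unmutated cells of LDHA-deficient and LDHA-sufficient mice. The part of these markers in the result was not tested. When GC B-like and plasma cell-like cells were left out, 5 mice had at least 5 mutated cells, and none of the 8 was called, against 0.401% of 6490 genes. At an unadjusted p under 0.05 there were 2, against 9.18% of all genes, and DESeq2 called 0. The median of all genes tested was -0.28 on the log2 scale, and DESeq2 size factors moved it by 0.33. Ccr7 was at -1.44 ± 0.56 (edgeR adjusted p = 0.335) and S1pr1 at -0.74 ± 0.36 (edgeR adjusted p = 0.501), while the estimate of Klf2 was smaller than its SE.

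IgG cells, which have switched class, were compared with IgM or IgD cells in the 3 LDHA-sufficient mice, since LDHA-deficient mice held 1, 1 and 0 IgG cells. Of 36 IgG cells in these 3 mice, 27 were GC B-like, against 84 of 558 IgM or IgD cells. Among the 8 genes 4 were called and all 4 fell in IgG cells, while 6.81% of 7650 genes were called and 4.43% as lower. Ccr7 was low, at 4.68, 8.75 and 0 CPM in IgG cells (3 UMIs in all) against 60.7, 72.9 and 125 CPM in IgM or IgD cells, and the fitted log2 fold change was -3.65 ± 0.63 (edgeR adjusted p = 5.50e-07). The 0 of mouse 3 is 0 of 37533 UMIs in 5 cells, which allows up to 79.9 CPM by counting error alone. Gpr183 held 65.5, 13.1 and 79.9 CPM in IgG and 83.0, 101 and 118 CPM in IgM or IgD cells, lower in 3 of 3 mice (-1.32 ± 0.39, edgeR adjusted p = 0.0145). Klf2 (-1.51 ± 0.46, edgeR adjusted p = 0.0467) and S1pr1 (-1.79 ± 0.37, edgeR adjusted p = 8.22e-05) were lower in 2 of 3 mice. In mouse 3, with 5 IgG cells of which 1 was GC B-like, Klf2 stood at 399.6 CPM in IgG against 284 CPM in IgM or IgD cells. Only Ccr7 was called without mouse 1, without mouse 2 and by DESeq2, which called 92 of all 7650 genes.

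Other genes of the pathways were taken from lists chosen with earlier results of these data known. Among 14 genes of sphingosine-1-phosphate and oxysterol handling, 7 were tested over all B cells and none was called between genotypes by edgeR, with 2 at an unadjusted p under 0.05 and 1 called by DESeq2. S1pr2, which confines B cells to the GC, differed by -2.68 ± 0.56 (edgeR adjusted p = 0.0915), and Spns2, an exporter of sphingosine-1-phosphate, by 1.24 ± 0.52 (edgeR adjusted p = 0.235). In mutated cells S1pr2 rose by 2.83 ± 0.40 (edgeR adjusted p = 4.05e-10) and Sphk2, a sphingosine kinase, fell by 2.21 ± 0.72 (edgeR adjusted p = 0.0212), out of 6 tested. Among all genes tested there 3.73% rose and 6.07% fell by edgeR, and DESeq2 called 1 of the 6. Of 14 other chemokine receptors, 1 was tested over all B cells, Ccr1, which was not called (0.44 ± 0.32, edgeR adjusted p = 0.519). Cxcr3 was called as higher in IgG cells (2.80 ± 0.89, edgeR adjusted p = 0.0235), 1 of 2 tested, where 2.38% of all genes rose. The DESeq2 count for this list there was 0.

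Of 26 genes of receptor signalling and desensitization, 24 were tested over all B cells and 2 fell in LDHA-deficient mice, against 1.00% of all genes. They were Rgs2 (-1.05 ± 0.22, edgeR adjusted p = 0.0307) and Rgs10 (-0.84 ± 0.19, edgeR adjusted p = 0.0421). Both are regulators that shorten G protein signals. Over all B cells DESeq2 called 1 of the 24. In non-GC B cells edgeR called 0 of 24, with 2 at an unadjusted p under 0.05 and 0 by DESeq2. Rgs13, a GC B cell member of that family, rose by 2.61 ± 0.30 in mutated cells (edgeR adjusted p = 3.73e-15), where 1 of 23 rose and 1 fell. These counts are near the 3.73% and 6.07% of all genes, and DESeq2 called 1 of the 23. The list median over all B cells was -0.03, beside 0.02 over all genes tested.

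Of 16 adhesion genes none of 15 tested was called by edgeR between genotypes over all B cells or in non-GC B cells. At an unadjusted p under 0.05 there were 1 and 3, and DESeq2 called 0 in both. In mutated cells Itgb3 (1.52 ± 0.48) and Itgb1 (0.82 ± 0.28) rose and Itga4 (-0.75 ± 0.24) and Rasgrp2 (-0.84 ± 0.27), an activator of integrins through Rap1, fell. Thus 2 of 15 tested rose and 2 fell by edgeR, against 3.73% and 6.07% of all genes, and DESeq2 called 1. In IgG cells Itgb3 rose by 1.53 ± 0.48 (edgeR adjusted p = 0.0233), and Itgb7 fell by 2.70 ± 0.73 on the log2 scale (edgeR adjusted p = 0.00496). Among all genes tested there 2.38% rose and 4.43% fell.

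Among 13 Klf and Foxo family and quiescence genes, 11 were tested over all B cells and edgeR called none between genotypes (2 at an unadjusted p under 0.05, 0 by DESeq2), with a median of 0.21 beside 0.02 over all genes. In mutated cells 5 of 11 fell and none rose, with a median of -0.78 beside -0.13. They were Klf3 (-1.89 ± 0.33, edgeR adjusted p = 1.52e-06), Btg1 (-1.04 ± 0.22), Btg2 (-0.84 ± 0.26), Foxp1 (-0.82 ± 0.22) and Tsc22d3 (-1.17 ± 0.37). Of all genes tested in mutated cells 6.07% fell. In IgG cells 4 of 10 tested fell by edgeR, Klf3, Foxp1, Btg1 and Klf13, against 4.43% of all genes. With DESeq2 the calls there were 1 of the 10, and 92 of all 7650 genes.

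Cell cycle genes moved with the same groupings. Of 18 genes of S, G2 and M phase, 5 fell in LDHA-deficient mice over all B cells, against 1.00% of all genes, with a list median of -1.38 beside 0.02. They were Ube2c (-1.28 ± 0.17), Ccna2 (-1.62 ± 0.22), Ccnb1 (-1.95 ± 0.30), Cdk1 (-1.42 ± 0.25) and Cenpf (-1.46 ± 0.22), and DESeq2 called 11. In non-GC B cells edgeR called 0 of 13, with 1 at an unadjusted p under 0.05 and 0 by DESeq2. In mutated cells 10 of 18 rose by edgeR, against 3.73% of all genes, with a list median of 1.32 beside -0.13. The DESeq2 count there was 6. In IgG cells 7 of 18 rose by edgeR, against 2.38% of all genes, with a list median of 0.87 beside -0.05. None of these 18 was called there by DESeq2 (0 calls). Of 12 dissociation stress genes 6 were tested over all B cells and edgeR called none between genotypes (1 at an unadjusted p under 0.05, 0 by DESeq2), with a median of 0.01. In IgG cells edgeR called 2 of 6, against 6.81% of all genes, and DESeq2 called 0. Zfp36 fell (-1.15 ± 0.38, edgeR adjusted p = 0.0384), and Jun was called as lower too (edgeR adjusted p = 0.0120). For Jun the log2 fold change is shrunken and the SE is not, so the size of its fall is not read. In mutated cells edgeR called 0 of 6 (3 at an unadjusted p under 0.05, 0 by DESeq2). The part of the cell cycle in the values of the 8 genes was not tested.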

How the data were processed

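The authors deposited UMI counts per gene and barcode (2836 barcodes, 32285 genes), hashtag UMI counts and a heavy chain table whose V identity is a fraction, per the file headers. Isotype and clone are other values of that table. The submitters' processing notes name Cell Ranger 6.0.0, Seurat 4.2.1 and mm10, and the matrix header names Cell Ranger 6.0.2. About 30000 cells were targeted, per the labels' protocols. HSPCs are given as the cell type of 2 of the 3 libraries (hashtags, heavy chains), against the protocols.

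Hashtags were called with HTODemux (Seurat 5.3.0), which gave 1856 barcodes with 1 hashtag and removed 820 doublets. About 167 doublets within a mouse were expected, and Scrublet called 0. Cells had at least 500 genes and 1000 UMIs and at most 10% mitochondrial UMIs (1849 cells). They were clustered with scanpy 1.11.5 (Leiden, resolution 0.8) and a cluster was named from at least 3 markers, so names can differ from the study's. Counts were summed per mouse and class (at least 20 cells, 5 for GC B-like and heavy chain groups) and tested with edgeR 4.0.16 (TMM, filterByExpr, threshold 0.05). DESeq2 1.42.0 was an alternative. The fits were tested on simulated data. A log2 fold change is that of the fit, which weights mice by depth. In edgeR fits it is shrunken, while its SE comes from the unshrunken coefficient and the F statistic. An estimate set against its SE thus mixes these scales, most where a group has counts near 0. The limit for a count of 0 uses 3 counts and covers counting error only. The 8 members and the lists were chosen with earlier results of these data known. The mutated against unmutated comparison was added after seeing the data. Genes named beside the members are, from each list, those past the threshold or the 4 with the smallest p over all B cells, shortened here, and the 3 most correlated genes per member. A result of the adhesion list is not reported here.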

Additional observations from a re-analysis of the deposited data

How the results depend on the processing

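Across the alternatives, 701 values of members whose estimate passed its SE were recomputed, and 643 kept their direction and their side of the threshold, while 29 lost and 19 gained the call and 10 changed sign. A further 27 estimates under their SE changed sign in 89 of 422 recomputed values, so no direction was read from them in the fits as reported. Klf2 and Ccr7 over all B cells are among these 27. Their calls without LDHA-sufficient mouse 3 are thus not among the 19. The count of members called stayed at 0 under every alternative run for non-GC, follicular, marginal zone and activated B-like cells and for mutated cells outside the GC. Over all B cells it was 2 with no filter on low counts (S1pr1, edgeR adjusted p = 0.00554, and Cxcr4, 0.0183), and 0 to 6 with 1 mouse left out. In GC B-like cells it was 1 with no filter. For the genotype effect of GC B-like less that of other B cells it was 1, Ccr7, with no filter, with hashtags called by ratio and with equal cells per mouse, and 0 to 1 with 1 mouse left out. For IgG cells it was 1 by DESeq2 and 1 with no mouse block, and 1 to 5 with 1 mouse left out. For mutated cells it was 2 by DESeq2 and 1 with identity under 0.98, and 4 to 5 with 1 mouse left out. With no mouse block Klf2 (edgeR adjusted p = 0.156) and S1pr1 (edgeR adjusted p = 0.0755) lost their calls in mutated cells, while Cxcr4 (1.04, edgeR adjusted p = 0.00246) and Cxcr5 (-0.76, edgeR adjusted p = 0.0356) gained them.

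Sign changes were in follicular B-like S1pr4 (0.16 with 200 genes and 500 UMIs per cell), marginal zone B-like Cxcr5 (-0.070 at resolution 1.2) and activated B-like Ccr7 (0.092 with members kept in clustering). Gpr183 in activated B-like cells ran from -0.70 to 0.058 with 1 mouse left out (highest without LDHA-sufficient mouse 1), and was 0.38 with equal cells and 0.18 with the highest Scrublet scores removed. In the difference between states Ccr6 ran from -0.29 (without LDHA-deficient mouse 3) to 1.85 with 1 mouse left out, and was -0.024 at resolution 1.2. In IgG cells it ran from -1.44 to 0.056 (without LDHA-sufficient mouse 2). It was 0.0074 with hashtags by ratio in mutated cells outside the GC. The cause was not tested. The log2 ratio of Cxcr5 of GC B-like to other B cells was -1.30 as thinned shares and -0.95 as CPM. Genes called in all ran from 3 to 1396 with 1 mouse left out over all B cells (110 in the fit as reported) and from 75 to 667 otherwise. In the other fits they ran from 1 to 32 in non-GC B (9), 3 to 21 in follicular (4), 0 to 18 in marginal zone (6), 2 to 12 in activated (2), 0 to 119 in GC B-like cells (1), 0 to 52 for the difference between states (1), 70 to 918 for IgG (521), 177 to 999 for mutated cells (799) and 10 to 51 outside the GC (26).

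IgG against IgM or IgD outside the GC was not run because too few cells remained, and no activated class formed at resolution 0.4. Depth limits the GC B-like class of LDHA-deficient mice and the mutated cells, where a member can rest on 0 to 48 UMIs per mouse. No paired analysis was possible between genotypes because hashtag numbers pair no mice.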
